A study of Rattus norvegicus with 9 samples.

Results

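The 93 genes described here had lower transcript levels in rat alveolar macrophages both 1 day and 28 days after nitrogen mustard (NM) than in cells of rats given phosphate-buffered saline (PBS). They were chosen by measured values, from 16095 gene symbols. Levels were fragments scaled to transcript length and library size (FPKM), summed over the transcripts of a symbol and put on the scale log2(FPKM + 1). A gene was taken when the mean difference from PBS was at most -0.7 on day 1 and again on day 28, every NM library lay below every PBS library, and the PBS mean was at least 5 FPKM. Left out by name were 13 further symbols that met these thresholds (7 families such as the solute carriers and the ribosomal proteins, and 6 single symbols), and 4 transcripts without a symbol that met them were not counted. The tests took only genes that reached 1 FPKM in 3 or more of the 9 libraries. All 93 members passed this filter, and 9885 genes passed it in all. Because the differences from PBS chose the members, those differences are given as a description, with no test.

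Male Wistar rats of 225 to 250 g were anaesthetised with isoflurane and received NM (mechlorethamine hydrochloride, 0.125 mg/kg) or PBS through the trachea. Macrophages from the air spaces were obtained by massage of the lung, 1 day or 28 days after NM. The time between PBS and collection is not given in the sources used here, so the PBS group cannot be matched to either day. RNA from whole cell samples was sequenced as paired reads of 75 bases, with 3 libraries for PBS, 3 for NM day 1 and 3 for NM day 28, described as biological replicates. The replicates carry the numbers 0, 1 and 2, and values below are given in that order.

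Alveolar macrophages live in the air spaces, where they take up surfactant, particles and dying cells and break them down in lysosomes. They also make complement components, carry receptors for complement and antibody, and handle large amounts of lipid. NM alkylates and cross-links DNA, and it serves as a model of mustard gas injury to the lung, in which inflammation is followed by scarring.

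The labelled cell type was checked against its markers. Cd68, a macrophage marker, ranged from 724 to 1355 FPKM in PBS, from 759 to 873 on day 1 and from 891 to 1103 on day 28, while the scavenger receptor Marco, Kcnip4 and Adgre1 were listed at 0 in all 9 libraries. Other markers of resident alveolar macrophages did move. Of 16 tested genes on that list, Abcg1, Cidec and Pparg fell and Car4 rose on day 1, and Abcg1, Cidec and Mrc1 fell and Car4 and Ctsk rose on day 28 (limma, adjusted over all tested genes). The list had median log2 differences of -0.30 and -0.32, against -0.04 over all tested genes on each day. Its summed level over 19 genes was 4303 to 7721 FPKM in PBS, 3648 to 4597 on day 1 and 3975 to 4609 on day 28.

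Markers of several other cells moved with the groups. Of 13 tested markers of monocytes and recruited macrophages, 8 rose on day 1 and 4 on day 28, and none fell. The monocyte receptor Ccr2 was listed at 0 in every PBS library and at 3.33, 6.60 and 9.25 FPKM on day 1, and Plac8 went from a mean of 2.20 ± 0.95 FPKM (SD, n = 3) to 51.7 ± 11.5. Summed over 14 genes, most of it from Lyz2, a lysozyme, that list gave 12613 to 24218 FPKM in PBS, 8548 to 13131 on day 1 and 12547 to 14793 on day 28. The summed level of 10 T cell markers was 22.4 to 33.4 FPKM in PBS, 61.3 to 71.4 on day 1 and 28.3 to 35.3 on day 28. For 6 natural killer cell markers the sums were 5.75 to 5.88, 38.1 to 47.6 and 9.03 to 20.4 FPKM, and for 5 dendritic cell markers 6.38 to 8.89, 28.0 to 33.3 and 8.93 to 15.1 FPKM. The summed level of 11 neutrophil markers was 72.8 to 107 FPKM in PBS, 532 to 907 on day 1 and 212 to 725 on day 28. For 15 markers of alveolar epithelium the sums were 244 to 420, 1048 to 3110 and 280 to 393 FPKM, with Sftpd listed at 0 throughout. Most of the day 28 sum came from Napsa (241, 168 and 239 FPKM). Of 14 tested genes on this list, 9 rose and none fell on day 1. On day 28, Aqp5, Krt18 and Krt19 fell and Hopx rose. For 5 airway markers, led by Scgb1a1, the sums were 1537 to 8455, 1525 to 3625 and 904 to 1447 FPKM. For 5 endothelial markers, led by Pecam1, the sums were 38.8 to 42.9, 38.4 to 49.1 and 20.9 to 31.8 FPKM. Neither day had a call among the 2 tested endothelial genes. Sums of the B cell, fibroblast, erythroid, and eosinophil and mast cell lists are not given here. No member belongs to any of the 13 cell type lists. Abcg1, Cidec, Tppp3, Slc7a2 and Slc4a1 of these lists could not be members, because the rule left them out by name. The part of the listed cells in the members' levels was not tested. In bulk RNA, fewer cells of a type and less RNA per cell cannot be told apart. Read counts were not available here; relative to NM day 1 replicate 0, the step between low FPKM values gave a depth of 1.42 to 2.58 in PBS, up to 1.47 on day 1 and 1.03 to 1.12 on day 28.

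The median distance of the members below PBS was about the same on both days. The rule set the same threshold of -0.7 for both, which draws the medians together. The median difference was -0.90 on day 1 (range -1.87 to -0.71) and -0.92 on day 28 (range -2.45 to -0.70), against a median of -0.04 over all tested genes on either day. In linear terms the median member was at 53.1% of its PBS level on day 1 and at 51.7% on day 28. Both differences use the same 3 PBS libraries, so they are not independent of each other. A difference of -1 or lower was reached by 20 members on day 1, by 35 on day 28 and by 16 on both. Every NM library lay below every PBS library in 6.65% of all tested genes, and in every member because the rule required it.

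**Figure D1:**
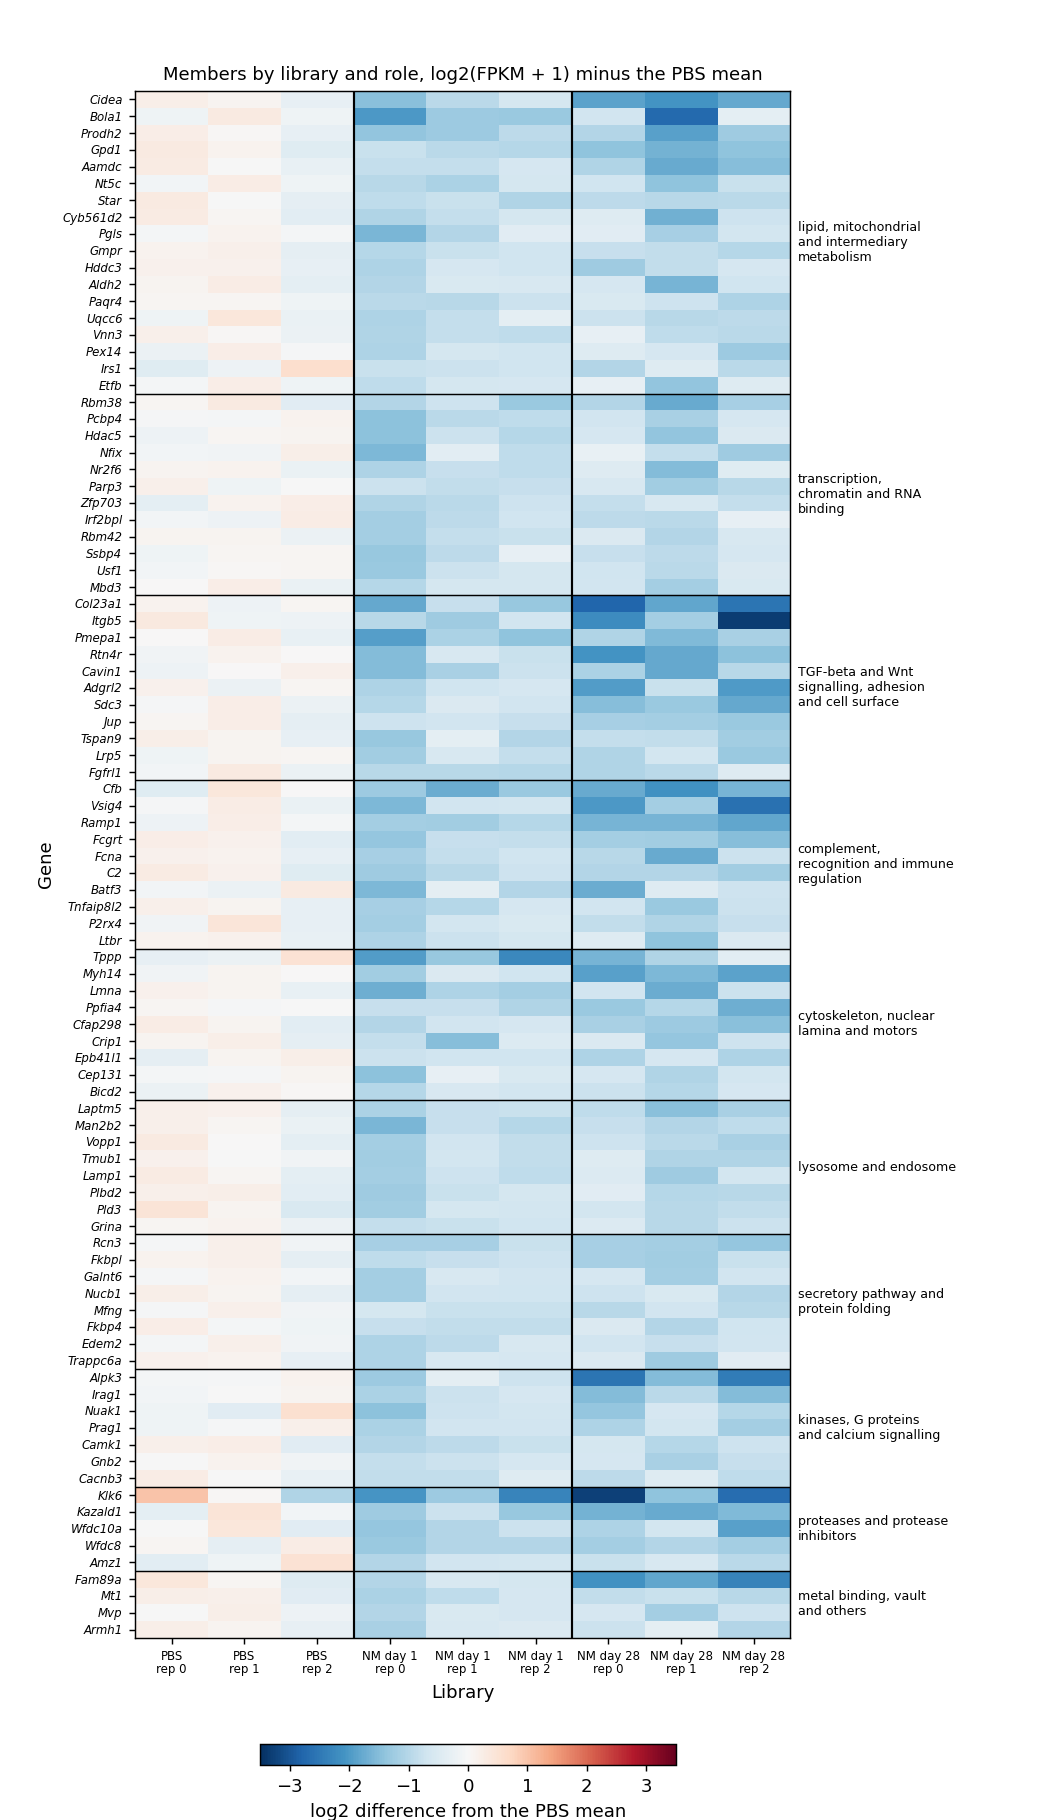
Each cell is the log2(FPKM + 1) level of 1 of 92 members (rows, ordered by role) in 1 of the 9 libraries (columns), minus the mean of the 3 PBS libraries, with blue for lower and red for higher. All 6 NM columns are blue for all 92 rows, which the rule fixed, and NM day 1 replicate 0 is the darkest day 1 column for most rows.

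Most members were abundant transcripts, which the rule favoured. It asked for a higher minimum level than the filter of the tested genes, and the log scale used makes differences of low genes smaller. The levels below are therefore a description and not a result about the set. The PBS means ran from 5.92 to 7782 FPKM with a median of 77.1. The median member stood at the percentile 85.7 of all tested genes in PBS. The PBS mean was at least 100 FPKM for 37 members and under 20 FPKM for 17. No member was at 0 in any library.

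**Figure D2:**
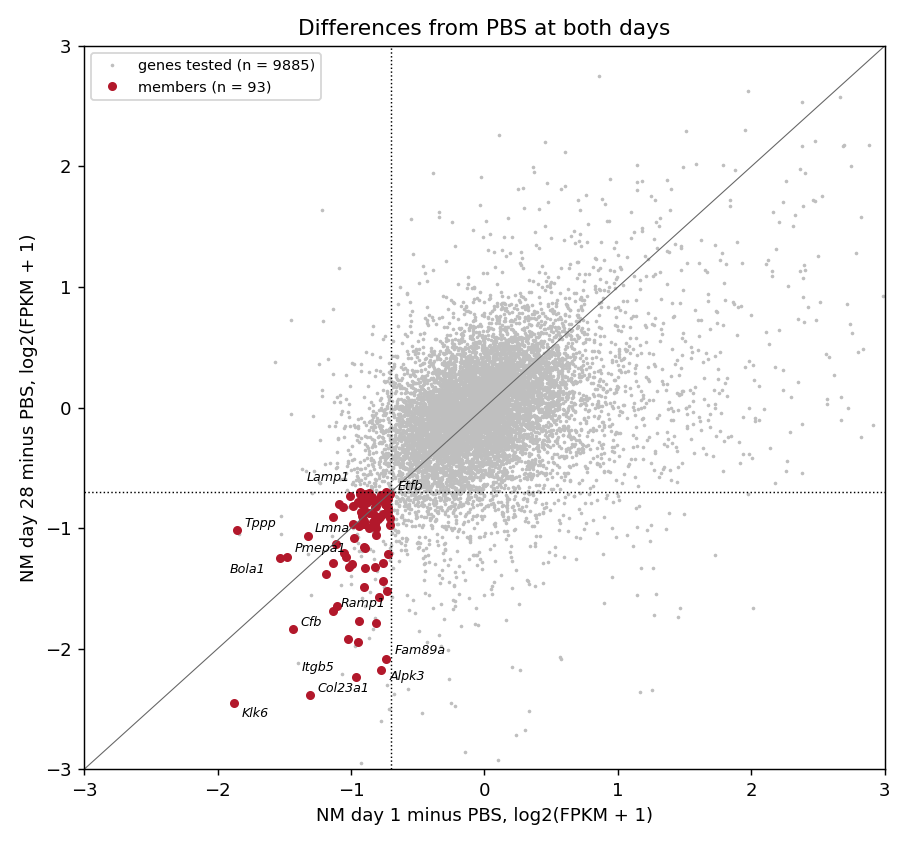
Each point is a gene, with its difference from PBS on day 1 on the horizontal axis and on day 28 on the vertical axis, both in log2(FPKM + 1), for 9885 tested genes (grey) and the 93 members (red). Dotted lines mark the threshold of -0.7, the solid line marks equal differences, the axes stop at 3 in each direction, and both axes share the PBS libraries. Klk6, Col23a1 and Itgb5 lie far below on day 28, and Tppp is lower on day 1 than on day 28.

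Complement and immune recognition supplied 10 members, with median differences of -0.96 on day 1 and -1.12 on day 28. Cfb, which encodes factor B of the alternative complement pathway, stood at 334, 594 and 452 FPKM in PBS, at 186, 133 and 182 on day 1 and at 131, 102 and 144 on day 28. The mean went from 460 ± 130 FPKM (SD, n = 3) to 167 ± 29.7 and 126 ± 21.7, that is 2.76-fold and 3.66-fold lower. C2, the serine protease that plays the matching part in the classical and lectin pathways, was at 890, 804 and 545 FPKM in PBS, at 306, 375 and 443 on day 1 and at 361, 359 and 317 on day 28. The 6 NM values ran from 102 to 186 FPKM for Cfb and from 306 to 443 for C2, and the lowest PBS library was replicate 0 for Cfb and replicate 2 for C2.

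Vsig4, a macrophage receptor for fragments of complement, gave 25.4, 31.5 and 22.1 FPKM in PBS, 8.19, 16.2 and 16.5 on day 1 and 5.71, 10.8 and 3.40 on day 28. The day 1 and day 28 values overlapped, since the highest day 28 library lay above the lowest day 1 library. Fcna, a ficolin that starts the lectin pathway, had PBS, day 1 and day 28 means of 155 ± 25.8, 82.5 ± 13.5 and 71.4 ± 23.9 FPKM. Fcgrt encodes the neonatal Fc receptor, which rescues antibody and albumin from breakdown. Its level was 1039, 979 and 693 FPKM in PBS, 349, 512 and 496 on day 1 and 389, 382 and 315 on day 28. The day 28 values of Fcgrt overlapped those of day 1.

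Ramp1, a subunit of the receptor for the neuropeptide CGRP, was at 252, 333 and 269 FPKM in PBS, at 123, 122 and 140 on day 1 and at 91.4, 91.7 and 79.3 on day 28, with no overlap between any of the 3 groups. Ltbr, the lymphotoxin beta receptor of the TNF receptor superfamily, gave 127, 128 and 97.3 FPKM, then 54.9, 69.2 and 76.2, then 85.6, 43.6 and 82.3. For Ltbr, day 28 replicate 1 was below every day 1 library, and the other two day 28 libraries were above every day 1 library. P2rx4, an ATP-gated cation channel, measured 136, 199 and 123 FPKM in PBS, 65.4, 95 and 103 on day 1 and 81.9, 72.0 and 84.1 on day 28, so the NM groups overlapped. The remaining immune members were Tnfaip8l2, a brake on innate and adaptive responses (-0.91 and -0.90), and Batf3, a transcription factor of dendritic cells and lymphocytes (-0.98 and -0.96).

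**Figure D3:**
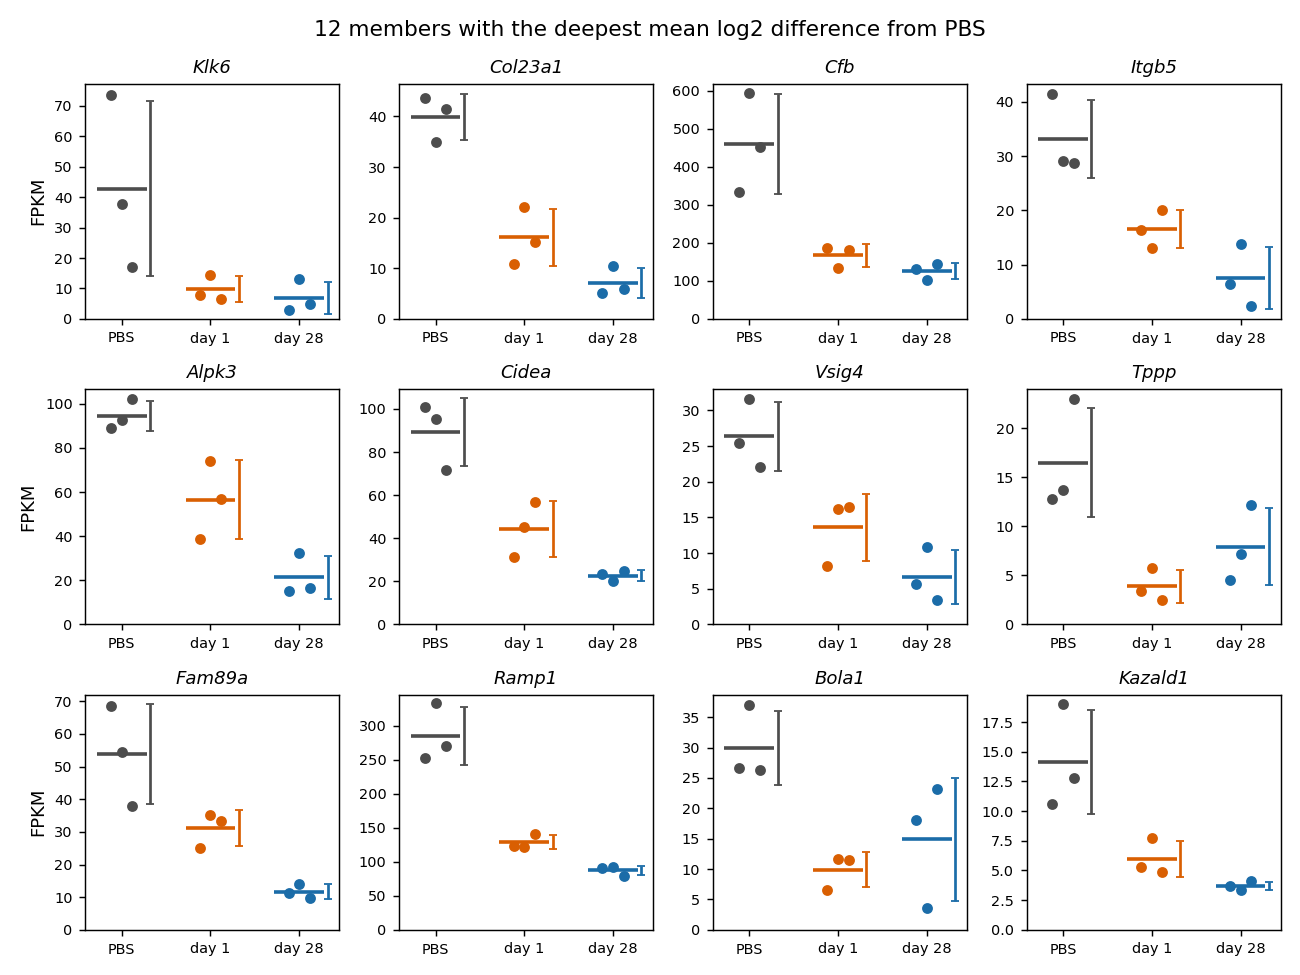
Points are FPKM in the 3 libraries of each group for the 12 members with the most negative mean of the 2 differences, ordered from Klk6, with the group mean as a horizontal bar and ± SD beside it. The values in PBS are above all NM values in each panel, as the rule required. Fam89a, Cidea, Alpk3, Ramp1, Col23a1 and Kazald1 are lower in all day 28 libraries than in all day 1 libraries, and Tppp and Bola1 have higher means on day 28 than on day 1.

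Lysosomal and endosomal members numbered 8, with medians of -0.90 and -0.84. Lamp1, the most used marker of the lysosomal membrane, was at 1335, 1153 and 863 FPKM in PBS, at 485, 663 and 598 on day 1 and at 788, 460 and 710 on day 28. Laptm5, a lysosomal membrane protein of blood cells, was at 1606, 1565 and 1132 FPKM, then at 659, 804 and 831, then at 763, 514 and 647. In both genes NM day 1 replicate 0 was the lowest day 1 library and NM day 28 replicate 1 the lowest day 28 library. Pld3, a nuclease of the lysosome, gave 856, 677 and 433 FPKM in PBS, 271, 411 and 405 on day 1 and 401, 320 and 348 on day 28. Its lowest PBS value was only a little above its highest NM value. Plbd2, a lysosomal phospholipase-like protein, had a narrower gap still, with 89.6, 91.0 and 60.6 FPKM in PBS, 32.5, 45.3 and 51.1 on day 1 and 59.5, 39.2 and 40.0 on day 28. The other members here were Man2b2, an alpha-mannosidase (-1.13 and -0.90), Vopp1 (-0.91 and -0.94), Tmub1 (-0.91 and -0.85) and Grina (-0.78 and -0.73).

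The region before the start of Lamp1 is shown because it holds an uncommon number of E-boxes, the sequence CACGTG that bHLH proteins such as TFEB, MYC and USF1 bind. Of 27457 rat promoters in the RefSeq table of build GRCr8, 1 had 5 or more in the 250 bases upstream of the start, and that was Lamp1, singled out after this was seen. Ltbr, which with Lamp1 belongs to a pathway list, and Hdac5, whose E-box is nearest to the start, are shown beside it. The windows are chr16:83075069-83075273 on the minus strand for Lamp1, chr4:159801615-159801674 on the minus strand for Ltbr and chr10:87688055-87688110 on the minus strand for Hdac5. Sequences run 5′ to 3′ along the gene, and capitals mark each E-box.
Lamp1: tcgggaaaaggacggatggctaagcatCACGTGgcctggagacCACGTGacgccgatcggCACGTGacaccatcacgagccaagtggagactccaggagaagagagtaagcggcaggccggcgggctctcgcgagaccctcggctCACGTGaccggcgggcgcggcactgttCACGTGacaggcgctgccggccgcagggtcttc
Ltbr: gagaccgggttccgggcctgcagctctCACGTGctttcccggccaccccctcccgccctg
Hdac5: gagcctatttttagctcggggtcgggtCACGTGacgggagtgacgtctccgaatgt

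The E-boxes of Lamp1 start 183, 167, 150, 65 and 38 bases upstream of the gene's start. The box of Ltbr starts 131 bases upstream and that of Hdac5 starts 29 bases upstream. Among the members, 75 of 93 had a promoter in the table, and 7 of them held an E-box (Batf3, Fgfrl1, Hdac5, Lamp1, Ltbr, Ppfia4 and Tmub1). That is 9.33% of members against 8.50% of the tested genes with a promoter and 5.79% of all promoters, so the members' share was near that of other tested genes. A match is a description of the letters and not a measured binding site.

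Metabolism and mitochondria supplied 18 members, the largest group, with medians of -0.86 and -0.92. Cidea, a lipid droplet protein, was at 101, 95.2 and 71.6 FPKM in PBS, at 31.1, 45.1 and 56.8 on day 1 and at 23.2, 19.9 and 24.9 on day 28, which is 2.01-fold and 3.94-fold lower. Gpd1, which makes the glycerol phosphate used for lipid synthesis, had means of 157 ± 39.5, 81.6 ± 6.15 and 54.3 ± 5.25 FPKM in PBS, day 1 and day 28. For both genes each day 28 library was below each day 1 library. Star, which brings cholesterol into mitochondria, stayed nearly level between the days, at 38.9 ± 8.55, 20.1 ± 1.84 and 19.5 ± 0.444 FPKM. Bola1, a mitochondrial protein tied to iron-sulphur proteins, gave 26.6, 37.1 and 26.3 FPKM in PBS, 6.56, 11.7 and 11.4 on day 1 and 18.1, 3.64 and 23.1 on day 28. Its day 28 libraries ranged from below every day 1 library to just under the lowest PBS library.

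Pex14, a docking protein for import into peroxisomes, was at 20.9, 28.7 and 23.5 FPKM in PBS, at 10.8, 15.5 and 14.6 on day 1 and at 17.5, 15.8 and 9.48 on day 28, and its NM groups overlapped. Enzymes of amino acid, fatty acid and aldehyde breakdown were among the abundant members. Prodh2, a hydroxyproline dehydrogenase, had means of 356 ± 62.4, 156 ± 27.6 and 139 ± 40.1 FPKM. Etfb, a subunit of the electron carrier of fatty acid oxidation, had means of 516 ± 71.0, 315 ± 34.5 and 329 ± 118 FPKM. Aldh2, which oxidises acetaldehyde, had means of 218 ± 45.5, 132 ± 24.3 and 114 ± 40.0 FPKM. Day 28 replicate 1 was the lowest of its group for all of Prodh2, Etfb and Aldh2.

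Nucleotide and carbohydrate enzymes were Gmpr, which converts GMP to IMP (-0.83 and -0.89), Nt5c, a nucleotidase (-0.91 and -0.97), and Pgls of the pentose phosphate pathway (-1.01 and -0.73). Uqcc6, an assembly factor of the respiratory chain, stood at -0.76 and -0.88. Vnn3, of the pantetheinase family, stood at -0.92 and -0.71, and the adaptor of insulin signalling Irs1 at -0.74 and -0.81. Cyb561d2 (-0.83 and -0.95), Hddc3 (-0.79 and -0.91), Paqr4 (-0.88 and -0.78) and Aamdc (-0.76 and -1.44) complete the group. Only Aamdc among these 10 had all its day 28 libraries below all its day 1 libraries.

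The surface, adhesion, TGF-beta and Wnt group of 11 members had a median of -0.94 on day 1 and -1.29 on day 28. Pmepa1, a target and negative regulator of TGF-beta signalling, was at 408, 485 and 337 FPKM in PBS, at 107, 189 and 151 on day 1 and at 196, 138 and 185 on day 28, or 2.76-fold and 2.37-fold lower. Col23a1, a transmembrane collagen, was at 43.6, 34.9 and 41.4 FPKM, then at 10.8, 22.2 and 15.3, then at 5.01, 10.5 and 5.88. Itgb5, the integrin subunit that pairs with alpha V, was at 41.4, 29.2 and 28.8 FPKM, then at 16.3, 13.1 and 20.1, then at 6.38, 13.7 and 2.39. Its day 28 values spread from 2.39 to 13.7 FPKM and overlapped those of day 1, whereas those of Col23a1 did not.

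Sdc3, a heparan sulphate proteoglycan, gave 178, 215 and 160 FPKM in PBS, 90.3, 127 and 116 on day 1 and 64.9, 74.3 and 52.3 on day 28, with all 3 groups apart. Jup, the junction protein plakoglobin, also separated the 3 groups, with means of 34.1 ± 6.55, 20 ± 1.05 and 14 ± 0.733 FPKM. Rtn4r, the Nogo receptor, stood at -0.94 and -1.77, and the adhesion receptor Adgrl2 at -0.79 and -1.57. Lrp5, a Wnt co-receptor, stood at -0.87 and -1.0. Fgfrl1, an FGF receptor without a kinase domain, stood at -0.99 and -0.82. The remaining members were Tspan9, a tetraspanin (-0.91 and -0.97), and Cavin1, a coat protein of caveolae (-1.14 and -1.29).

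Cytoskeletal, lamina and motor proteins gave 9 members, with medians of -0.82 and -1.02. Crip1, a small LIM protein, was the most abundant member, at 8234, 8880 and 6231 FPKM in PBS, at 4316, 2764 and 5540 on day 1 and at 5405, 2997 and 4658 on day 28. The PBS libraries were above the others, and the NM groups overlapped. Tppp, which promotes the polymerisation of tubulin, was at 12.8, 13.8 and 23.0 FPKM in PBS, at 3.35, 5.75 and 2.52 on day 1 and at 4.48, 7.13 and 12.2 on day 28. Its highest day 28 library was close to its lowest PBS library. Myh14, a non-muscle myosin heavy chain, measured 85.1, 98.4 and 93.6 FPKM in PBS, 38.9, 64.1 and 56.2 on day 1 and 24.1, 30.2 and 24.3 on day 28, with no overlap between groups.

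Lmna, which encodes the A-type lamins of the nuclear envelope, had means of 288 ± 43.1, 115 ± 25.5 and 143 ± 51.1 FPKM. Cfap298, a protein needed for motile cilia, had means of 123 ± 26.9, 71.4 ± 11.0 and 48.9 ± 5.69 FPKM. Beside it, the 5 airway markers had their lowest sums on day 28, as given above, and their part in the level of Cfap298 was not tested. The scaffold Ppfia4 stood at -0.90 and -1.33, the membrane skeleton protein Epb41l1 at -0.71 and -0.92, the centrosomal protein Cep131 at -0.76 on both days and the dynein adaptor Bicd2 at -0.74 and -0.78.

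Kinases, G proteins and calcium proteins were 7, with medians of -0.82 and -0.97. Alpk3, an alpha-kinase best known from heart muscle, was at 89.2, 92.5 and 102 FPKM in PBS, at 38.7, 74.2 and 56.9 on day 1 and at 15.2, 32.5 and 16.4 on day 28, or 1.67-fold and 4.42-fold lower, with the 3 groups apart. Gnb2, a beta subunit of heterotrimeric G proteins, was at 679, 749 and 621 FPKM, then at 379, 408 and 451, then at 456, 312 and 390, and its NM groups overlapped. Camk1, a calmodulin-dependent kinase, stood at -0.91 and -0.79, and Cacnb3, a calcium channel subunit, at -0.72 and -0.76. Irag1, a substrate of the cGMP-dependent kinase, stood at -0.82 and -1.32. Nuak1, a relative of AMPK, stood at -0.94 and -0.98, and the pseudokinase Prag1 at -0.82 and -0.97.

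Regulators of transcription, chromatin and RNA were 12 members, with medians of -0.93 on day 1 and -0.79 on day 28. Nr2f6, an orphan nuclear receptor, was at 74.8, 76.7 and 60.1 FPKM in PBS, at 32.6, 39.3 and 37.3 on day 1 and at 51.2, 23.9 and 52.0 on day 28. As for Ltbr, day 28 replicate 1 was the lowest NM library and the other two day 28 libraries lay between day 1 and PBS. Hdac5, a class II histone deacetylase, had means of 58.1 ± 6.17, 27.7 ± 6.69 and 33.5 ± 10.5 FPKM. Usf1, which binds the E-box, had means of 120 ± 7.36, 65.4 ± 15.1 and 73.0 ± 11.1 FPKM. Mbd3, a subunit of the NuRD complex, had means of 169 ± 26.8, 100 ± 15.1 and 97.5 ± 21.9 FPKM.

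The DNA-binding factors Nfix (-0.95 and -0.78) and Zfp703 (-0.91 and -0.74), the corepressor Irf2bpl (-0.93 and -0.71) and Ssbp4 (-0.84 and -0.77) were further members of this group. Parp3, which acts at DNA breaks, stood at -0.80 and -0.92. RNA-binding members were Rbm38 (-1.02 and -1.32), Pcbp4 (-1.09 and -0.80) and Rbm42 (-0.93 and -0.70). No gene of this group had its day 28 libraries all below its day 1 libraries.

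The secretory pathway gave 8 members with medians of -0.83 and -0.79. Rcn3, a calcium-binding protein of the endoplasmic reticulum, was the lowest of them relative to PBS, with means of 295 ± 33.1, 143 ± 23.0 and 124 ± 9.20 FPKM. Edem2, which trims glycans of misfolded proteins, stood at -0.86 and -0.71, and the Golgi calcium protein Nucb1 at -0.85 and -0.76. The glycosyltransferases Galnt6 (-0.81 and -0.82) and Mfng, a modifier of Notch (-0.72 and -0.87), the immunophilins Fkbp4 (-0.84 and -0.74) and Fkbpl (-0.81 and -1.06), and the vesicle tethering subunit Trappc6a (-0.73 and -0.71) complete it.

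Among 6 proteases and inhibitors the medians were -1.08 and -1.17. Klk6, a kallikrein serine protease, had the most negative mean difference of all members. Its level was 73.7, 37.7 and 17.0 FPKM in PBS, 7.99, 14.5 and 6.59 on day 1 and 2.90, 13 and 4.92 on day 28. The PBS libraries alone ran from 17.0 to 73.7 FPKM, and the lowest of them was close to the highest NM library. Kazald1, a secreted protein with a Kazal inhibitor domain, was at 10.6, 19.0 and 12.8 FPKM, then at 5.26, 7.72 and 4.91, then at 3.67, 3.38 and 4.08, with no overlap. The whey acidic proteins Wfdc8 (-1.12 and -1.13) and Wfdc10a (-1.05 and -1.21) and the metalloprotease Amz1 (-0.78 and -0.76) were further members.

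In the last group of 4, Mt1, a metallothionein that binds zinc and copper, was at 924, 907 and 599 FPKM in PBS, at 368, 430 and 524 on day 1 and at 434, 463 and 402 on day 28. Fam89a was at 68.6, 54.6 and 38 FPKM, then at 24.9, 35.2 and 33.4, then at 11.3, 14.1 and 9.60. All day 28 values of Fam89a were below all its day 1 values, and those of Mt1 lay within the day 1 range. Mvp, the major protein of vault particles, stood at -0.72 and -0.83, and Armh1 at -0.74 and -0.70.

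The difference between the NM groups was not itself a criterion of the rule. It was tested with limma on log2(FPKM + 1) over all 9885 genes, with Benjamini-Hochberg adjustment. The rule did hold both NM means and every NM library below PBS, so this difference is not free of the selection. The shares of members are therefore set beside those of all tested genes as a description only. At an adjusted p under 0.05, 7 of 93 members fell from day 1 to day 28 (7.53%), against 6.88% of all tested genes. None rose, against 4.75% of all tested genes. At an unadjusted limma p under 0.05, 17 of 93 members were lower and 1 higher. Of all 9885 tested genes, 1447 were lower and 1216 higher at that level. The share of members that fell is near that of other genes and is no result about the set. The median difference was -0.06, with 59 of 93 members below 0, against -0.004 and 4978 of 9885 for all tested genes. Every day 28 library was below every day 1 library in 12 members (12.9%, against 15.7% of tested genes) and above in 0 (against 15.1%).

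The 7 members that passed came from several roles. Fam89a fell by 1.35 ± 0.23 (SE, log2) with a limma adjusted p of 0.00340, Alpk3 by 1.40 ± 0.28 with 0.00802, and Myh14 by 0.97 ± 0.19 with 0.00709. These 3 passed under all 18 alternative settings tried. Col23a1 fell by 1.08 ± 0.28 (adjusted p 0.0272), Cidea by 0.90 ± 0.22 (0.0198), Sdc3 by 0.79 ± 0.19 (0.0183) and Ramp1 by 0.55 ± 0.15 (0.0387), again from limma. Each of these 4 missed the threshold when NM day 1 replicate 1 was left out (adjusted p of 0.119 for Col23a1, 0.0770 for Cidea, 0.0874 for Sdc3 and 0.0903 for Ramp1), when NM day 1 replicate 2 was left out (0.0754, 0.0870, 0.0705 and 0.142) and when NM day 28 replicate 0 was left out (0.0978, 0.0515, 0.0502 and 0.0811). Without NM day 28 replicate 2 the values were 0.0848 for Col23a1, 0.0752 for Sdc3 and 0.132 for Ramp1, and without NM day 1 replicate 0 it was 0.0936 for Ramp1. The count of lower members became 3 without NM day 1 replicate 1, NM day 1 replicate 2 or NM day 28 replicate 0, 4 without NM day 28 replicate 2, and 11 without NM day 28 replicate 1, when 1 member also rose.

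**Figure D4:**
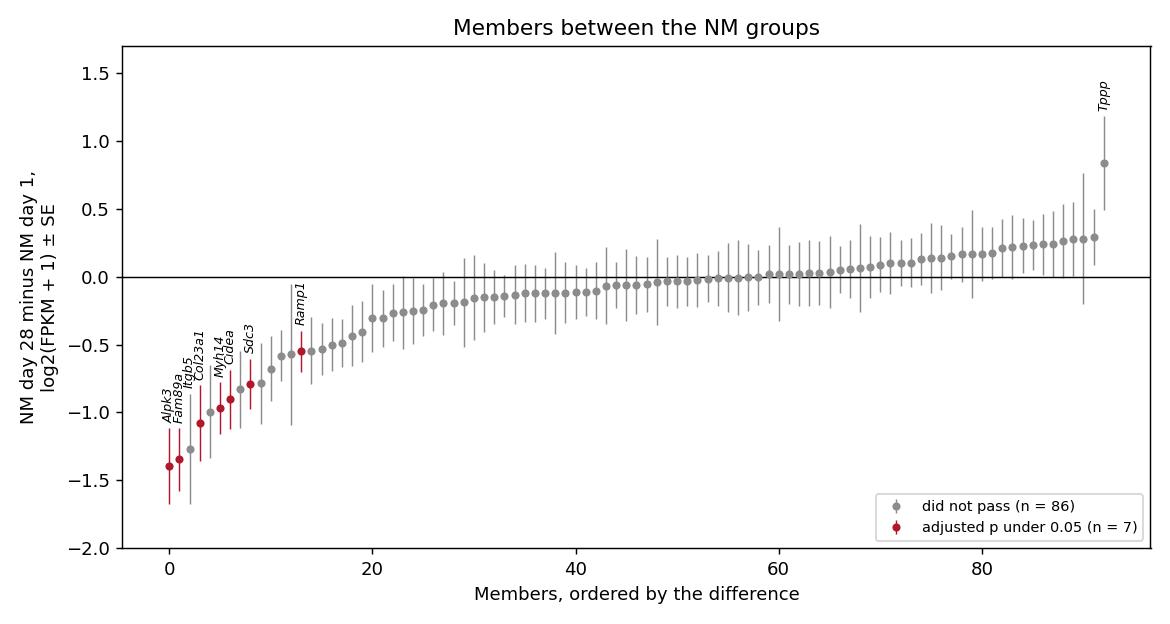
Each point is a member, ordered along the horizontal axis by its day 28 minus day 1 difference in log2(FPKM + 1), with the limma SE as a bar, and the 7 members with an adjusted p under 0.05 in red. All 7 are at the lower end, Itgb5 lies among them with a wider SE and did not pass, and Tppp is the highest point.

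Members with differences as large but more spread did not pass. Itgb5 differed by -1.27 ± 0.41 (limma adjusted p 0.0647), Vsig4 by -0.99 ± 0.34 (0.0832) and Rtn4r by -0.83 ± 0.28 (0.0777). Tppp differed by 0.84 ± 0.35 in the other direction (adjusted p 0.141), and Pmepa1, Lmna and Bola1 also had higher means on day 28 than on day 1. A p that misses the threshold does not show that the 2 days were alike. Most members thus had no detectable difference between day 1 and day 28 with 3 libraries a group.

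Related genes that are no members were counted in lists of 11 pathways, against the calls over all tested genes. Of the tested genes, 5.28% were called higher and 4.58% lower on day 1, and 3.07% higher and 3.98% lower on day 28. Lamp1 and Plbd2 belong to the lysosome list, whose other 42 tested genes had a median difference of -0.29 on day 1 and 0.003 on day 28. On day 1, 4 of them fell (Hexa, Man2b1, Tfeb and Tpp1) and none rose (at an unadjusted p under 0.05, 12 were lower and 2 higher). Tfeb, the factor that drives lysosomal genes through E-box-like sites, fell on day 1 by 1.11 ± 0.24 (limma adjusted p 0.0158), from 117, 163 and 130 FPKM in PBS to 50.4, 67.6 and 70.4. It was at 128, 69.1 and 129 FPKM on day 28, lowest in replicate 1, as was Lamp1. That replicate was the lowest of its group for 52.7% of members and 39.5% of tested genes. A link between Tfeb and the level of Lamp1 was not tested. The day 1 call of Tfeb was lost without NM day 1 replicate 0 (limma adjusted p 0.0982) or without PBS replicate 1 (0.0747). Hexa, a hydrolase of gangliosides, fell on day 1 by 1.02 ± 0.23 (0.0185) and missed the threshold without NM day 1 replicate 0 (0.113), PBS replicate 0 (0.0644) or PBS replicate 1 (0.0682).

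The TNF receptor list holds Ltbr and 12 other tested genes. Of the 12, 6 rose and 1 fell on day 1, while none was called on day 28 (unadjusted, 0 higher and 1 lower). Cd40, a costimulatory receptor, rose by 2.91 ± 0.32 on day 1 (limma adjusted p 0.000163), and Tnfrsf8, the receptor CD30, fell by 1.45 ± 0.18 (0.000327), and both passed in all 18 settings. Tnfrsf8 was at 122, 141 and 124 FPKM on day 28 against 132, 141 and 128 in PBS, where Ltbr had a mean of 70.5 ± 23.3 FPKM against 117 ± 17.5. For Pmepa1, the TGF-beta list has 22 other tested genes, of which 2 fell (Tgfb1 and Tgfbr2) and none rose on day 1 (unadjusted, 5 lower and 2 higher). On day 28, Id2 rose and Acvrl1 fell (unadjusted, 4 higher and 7 lower). Of the 18 alternative settings, 12 lost the call of Tgfbr2 (limma adjusted p 0.0460, and up to 0.194), 8 that of Acvrl1 (0.0365, up to 0.156, and 0.0562 with the replicate number as a block) and 4 that of Id2 (0.0296, up to 0.0974). Tgfb1, the ligand, fell on day 1 by 0.80 ± 0.20 (adjusted p 0.0248), and missed the threshold without NM day 1 replicate 0 (0.138), NM day 1 replicate 1 (0.0708), PBS replicate 0 (0.0811) or PBS replicate 1 (0.103). Its day 28 difference of -0.6964 put it just outside the threshold for membership.

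For Pex14, none of the 28 other tested peroxisome genes was called on either day (unadjusted, 0 higher and 5 lower on day 1, 1 higher and 5 lower on day 28), and their medians were -0.08 and -0.004. For Nr2f6, 3 of 21 other nuclear receptor genes rose (Nr1d1, Nr4a2 and Nr4a3) and 5 fell (Nr1h2, Nr1h3, Pparg, Rara and Rxrb) on day 1. On day 28, 1 fell (Rara) and none rose (unadjusted, 4 lower and 0 higher), and the call of Rara was lost in 11 of 18 alternative settings (limma adjusted p 0.0401, and up to 0.173). Nr4a3 and Nr4a2, immediate early receptors, rose on day 1 by 2.58 ± 0.31 and 1.45 ± 0.25 (limma adjusted p 0.000336 and 0.00410). For Tppp, 1 of 34 other cytoskeletal regulators rose (Ezr) and 5 fell (Actn4, Coro1b, Flna, Map4 and Tppp3) on day 1. On day 28, 3 fell (Arpc1b, Myh9 and Tuba1a) and none rose (unadjusted, 12 lower and 1 higher). The call of Myh9 was lost in 7 of 18 settings and that of Tuba1a in 2 (adjusted p up to 0.122 and 0.0718). Ezr, which links actin to the membrane, rose on day 1 by 1.37 ± 0.25 (adjusted p 0.00591). For P2rx4 and Gnb2, 4 of 27 other purine and G protein genes rose (Adora2a, Adora3, P2ry6 and Rgs18) and 1 fell (Prkaca) on day 1. On day 28, 2 rose (Adcy4 and Rgs18) and none fell (unadjusted, 2 higher and 5 lower), with 3 and 2 of 18 settings losing the calls (adjusted p up to 0.105 and 0.0529). Rgs18, which shortens G protein signals, rose on day 1 by 2.38 ± 0.44 (0.00648). Over all 11 lists, 26 genes that are no members fell on day 1, which became 2 without NM day 1 replicate 0 and 3 without PBS replicate 1, and 19 rose, which became 7 without NM day 1 replicate 1. On day 28, 8 fell, which became 0 without PBS replicate 1, and 8 rose, which became 2 without NM day 28 replicate 2. The citrate cycle, lipid regulator, macrophage transcription factor and amino acid lists hold no member.

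Some libraries carried more of the members' differences than others. Within the day 1 group, replicate 0 was the lowest library for 73 members (78.5%), against 33.7% of tested genes, and its median deviation from the group mean was -0.26 over the members. The same library stood apart in cell markers. It had the highest day 1 sums for alveolar epithelium (3110 FPKM, against 1474 and 1048) and neutrophils (907, against 719 and 532). Its sum was the lowest for resident alveolar macrophages (3648, against 4597 and 4549). So was its sum for the list of monocytes and recruited macrophages (8548, against 13067 and 13131). Most of that sum was Lyz2 (7069, against 11220 and 11380), and other markers of the list went both ways. Itgam was highest in replicate 0 (33.4 FPKM, against 31.9 and 18.1) and Ccr2 lowest (3.33, against 6.60 and 9.25). The part of these cells in the low member values of replicate 0 was not tested. Within PBS, replicate 2 was the lowest for 62 members (66.7%, against 41.7% of tested genes), and within day 28, replicate 1 was the lowest for 49 (52.7%, against 39.5%). Without NM day 1 replicate 0, the members' median on day 1 was -0.75, and 56 of 93 members remained at or below -0.7 on both days. All 93 stayed below 0 on both days whichever library was left out, which the rule fixed in advance. With quantile normalisation of the libraries, all 93 stayed below 0 and 50 remained at or below -0.7 on both days, and with median-of-ratios scaling 77 did.

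The upstream sequences of the members were set beside those of other expressed genes. Over the 250 bases before the start, the median GC content was 60.8% in the 75 members with a promoter, 59.6% in the tested genes and 52.0% in all promoters, and the median number of CpG was 16, 16 and 6. Searched on both strands, the GC box GGGCGGG was in 48.0% of members against 42.3% of tested genes. The PU.1 motif GAGGAAG was in 12% against 11.3%, and the SMAD motif CAGACA was in 17.3% against 12.6%. The ETS motif CCGGAAG was in 6.67% of members (5 of 75) against 17.1% of tested genes and 7.74% of all promoters. The NFY motif CCAAT was in 28.0% against 36.5%, the nuclear receptor motif AGGTCA in 8% against 10.5%, the AP-1 motif TGACTCA in 4% against 3.33% and the NRF1 motif GCGCATG in 4% against 6.49%. The ERR motif AAGGTCA, which contains AGGTCA, was in 0 of 75 members and in 2.39% of tested genes. No test was made of these shares. The members' genes had a median span of 16.4 kb against 20.9 kb for tested genes.

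The edge of the set was thin. On day 1, Etfb (-0.7068), Aldh2 (-0.7106) and Epb41l1 (-0.7114) were just inside the threshold of -0.7, and Ift57 (-0.6944), Sil1 (-0.6928) and Eva1b (-0.6913) were just outside, among 90 genes that missed only this criterion. On day 28, Rbm42 (-0.7022), Armh1 (-0.7031) and Vnn3 (-0.7074) were just inside, and Ocel1 (-0.6968), Tgfb1 (-0.6964) and Ppp1r9b (-0.6865) just outside, among 73. The gap between the lowest PBS and the highest NM library was 0.01 for Irs1, 0.02 for Plbd2 and 0.04 for Armh1 in log2, and it was under 0.1 for 8 members. Hmga1 (-0.01), Cyp4f6 (-0.03) and Kiaa0408L (-0.10) missed the criterion by an overlap, among 25. For the PBS level, Armh1 (5.92 FPKM), Irs1 (6.52) and Nfix (7.27) were nearest above 5 FPKM, and Vwf (2.97), Sfrp2 (2.72) and Fcmr (2.66) were the nearest of 7 below it.

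Several transcripts stood behind 6 members, Adgrl2, Bicd2, Crip1, Epb41l1, Irag1 and Tmub1. For Crip1, 1 transcript made up 99.3% of the PBS level. For Tmub1, the larger transcript had means of 23.6 ± 0.981 FPKM in PBS, 12.3 ± 0.695 on day 1 and 16.0 ± 5.92 on day 28. The smaller went from 7.51 ± 3.36 FPKM to 4.03 ± 3.98 and 1.18 ± 2.04. For Adgrl2, 2 of 7 transcripts held nearly all of the level, and the larger went from 10.9 ± 2.34 FPKM to 6.76 ± 3.59 and 2.39 ± 0.844. The split between transcripts of a gene is an estimate from shared reads.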

How the data were processed

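The authors deposited FPKM values for each RefSeq transcript in 9 libraries, made with TopHat and Cuffdiff on the rat build rn4 per the submitters' processing notes. Versions, annotation and library strand are not given in the sources used here. FPKM were summed per symbol, with symbols from a RefSeq table (GRCr8) that named 17181 of 18197 transcript rows (94.4%). Library depth is not recorded in FPKM, so no counting error is given. The p-values set a difference against the spread between libraries within groups. That spread is pooled over the 3 groups and shared in part across genes.

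Genes with at least 1 FPKM in at least 3 of 9 libraries (9885) were fitted in R 4.3.3 by limma 3.58.1, using lmFit and trended eBayes. The fit used log2(FPKM + 1), 1 mean for each of the 3 groups and all 9 libraries, and p-values were adjusted by Benjamini-Hochberg over these genes and called at 0.05. The addition of 1 makes differences of low genes smaller. On simulated data (9885 genes, NM day 28 against NM day 1), 67, 67 and 66 genes were changed by 0.5, 1 and 2 log2 units. Of these, 2.99%, 58.2% and 92.4% were recovered, and 2 unchanged genes were called. Fewer genes were changed there than were called between these groups (470 higher and 680 lower). The adjustment was therefore stricter in the simulation than in the data. Sums, tables and plots were made in Python 3.11.15 (pandas 2.3.3, numpy 2.4.6, matplotlib 3.10.9).

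The members, the lists, the role groups and the tests were chosen with earlier results of these data known. Members are named once by role, except 1 that is not reported here, and the day 28 calls of the lysosome list are not reported either. Values in each library are given for the 12 members with the most negative mean difference, the 8 with the highest PBS mean, those called between the NM groups, and those in a pathway list. Pathway list genes that are no members could be named where they were called. Their values could be given if they were among the 2 most significant calls of their list. Alternatives were pseudocounts of 0.1 and 5, no filter or 5 FPKM, 2 other scalings, single isoforms, the replicate number as a block, only the 6 libraries compared, and each library left out. Same-numbered libraries did not deviate together (correlations from -0.104 to 0.196 over 9 pairs, 3 of them over 0.1), so the numbers were not taken to pair the libraries.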

Additional observations from a re-analysis of the deposited data

Results flagged for a closer look

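For 7 members the difference from PBS differed between the days, by limma's test of NM day 28 against NM day 1 (3 libraries each). The log2 differences of day 28 minus day 1 were -1.35 for Fam89a, -0.97 for Myh14, -1.40 for Alpk3, -0.79 for Sdc3, -0.90 for Cidea, -1.08 for Col23a1 and -0.55 for Ramp1. All were lower on day 28, in every library of that group. The share of members called lower (7.53%) was near that of all tested genes (6.88%). The rule bounded both NM groups, so this comparison of shares is a description only.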

How the results depend on the processing

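The members numbered 93 under the rule as given. They numbered 243 at a threshold of -0.5, 16 at -1 and 59 after quantile normalisation (48 of them members), and 57 to 151 with a library left out; the other settings gave 77 to 108. Between the NM groups, 7 members were lower and 0 higher. These counts were 3 to 11 and 0 to 1 with a library left out and stayed within 1.5 times otherwise. With the replicate number as a block (7 lower), Ramp1 missed the threshold (limma adjusted p 0.0616) and Vsig4 passed (0.0478). Col23a1 missed it with no filter and with only the 6 libraries compared (limma adjusted p 0.0551 in both). Of the 287 pathway list genes that are no members, 19 were higher and 26 lower on day 1, and 8 were higher and 8 lower on day 28. With a library left out these became 7 to 21, 2 to 37, 2 to 11 and 0 to 9. The day 1 count of higher genes was 9 with a filter of 5 FPKM, and that of lower genes 9 after quantile normalisation. The day 28 count of lower genes was 4 with single isoforms, 3 with no filter, 2 with only the 6 libraries compared and 5 after quantile normalisation. The cause was not tested. No result changed direction. In the simulated data, where fewer genes changed than were called here, changes of 0.5 log2 units were rarely recovered with 3 libraries a group.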
